A study of Mus musculus with 3 samples.

Results

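Oxidative phosphorylation draws its protein subunits from 2 genomes, and the libraries were set against each other genome by genome and complex by complex. The members were the protein-coding genes whose symbols start with Ndufa, Ndufb, Ndufc, Ndufs, Ndufv, Uqcr, Cox4 to Cox8, Atp5 or mt-, together with Sdha, Sdhb, Sdhc, Sdhd and Cyc1. Pseudogenes were left out. This rule took 108 of the 54232 gene identifiers in each file, 95 of them nuclear and 13 mitochondrially encoded. Atp5o is listed under 2 identifiers, 1 of which had 0 counts in all 3 libraries, so the members have 107 distinct symbols. Ndufb1-ps was left out because the annotation gives it as a non-coding RNA. The prefix Ndufa also takes in 8 assembly factors of complex I (Ndufaf1 to Ndufaf8), which are described apart from the subunits, and Ndufa4 and Ndufa4l2 were placed in complex IV.

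RNA sequencing had been done on cultured cortical neurons of wildtype CD1 mice, a laboratory mouse stock, with 1 library per group. The first group is IKVAV PA + PEDOT-S, titled Therapy PA + PS2 in the labels, with a library name that reads PEDOT-S_OH. That both names mean 1 material is an assumption. The second is IKVAV PA, a peptide amphiphile (a short peptide with a fatty tail that assembles into fibres) carrying the IKVAV motif known from laminin. The third is the PDL control, for which the labels do not spell out the abbreviation and whose treatment field reads the same as that of the scaffold groups. IKVAV PA is titled Therapy PA and the PDL control Therapy control, and all 3 libraries are numbered repeat 3 of their group. Culture times, the number of animals and the culture format are not stated.

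In the inner membrane of the mitochondrion, complexes I and II pass electrons from NADH and succinate to ubiquinone, complex III passes them to cytochrome c, and complex IV passes them to oxygen. Complexes I, III and IV pump protons on the way, and complex V, the ATP synthase, uses the returning protons to make ATP. Neurons rely on this pathway for most of the ATP that their ion pumps and synapses use. Complex II is made from nuclear genes alone, whereas the other complexes also hold subunits that are encoded in mitochondrial DNA, transcribed there as long RNAs and cut into separate messages.

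The libraries held 79057998 counts for IKVAV PA + PEDOT-S, 124425958 for IKVAV PA and 78993105 for the PDL control. Levels are given as CPM (counts divided by library size, scaled by trimmed-mean factors of 0.990 in IKVAV PA + PEDOT-S, 1.002 in IKVAV PA and 1.008 in the PDL control). Genes with at least 1 CPM in at least 1 library were kept, 13884 in all, and their median log2 ratio was 0.00 or 0.01 in each of the 3 comparisons. Among the members, 87 of the 95 nuclear and 7 of the 13 mitochondrially encoded genes passed this filter. Higher and lower are used of a gene whose 95% counting interval (exact binomial) lay wholly beyond 1.5-fold, and a second bound of 1.2-fold was used to describe smaller differences. With 1 library per group there is no replicate, no test between groups was made, and these intervals cover counting error only. Both comparisons against the PDL control use the same control library. The label of cortical neurons was set against markers. All 15 neuronal markers passed the filter, with sums of 11209 CPM in IKVAV PA + PEDOT-S, 11443 CPM in IKVAV PA and 11191 CPM in the PDL control, and none was higher or lower at 1.5-fold.

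No member that passed the filter was higher or lower at 1.5-fold in any of the 3 comparisons. For IKVAV PA + PEDOT-S against the PDL control the count was 0 of 94, where 0.447% of all 13884 genes were higher and 3.76% lower. For IKVAV PA against the PDL control it was 0 of 94, where 0.54% were higher and 3.42% lower. For IKVAV PA + PEDOT-S against IKVAV PA it was again 0 of 94, where 0.331% were higher and 2.02% lower. The differences described below are therefore small ones, and most are smaller than 1.2-fold.

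The summed counts of the members differed by genome of origin in IKVAV PA + PEDOT-S, whereas single members overlapped. Against the PDL control, the nuclear genes Ndufaf1 and Ndufaf2 had log2 ratios of -0.27 and -0.26, below the -0.24 of mt-Co1. The 13 mitochondrially encoded genes held 1140492 counts in IKVAV PA + PEDOT-S, 2118164 in IKVAV PA and 1416434 in the PDL control. That is 1.44% of all counts in IKVAV PA + PEDOT-S, 1.70% in IKVAV PA and 1.79% in the PDL control. The 95 nuclear members held 0.703% in IKVAV PA + PEDOT-S, 0.659% in IKVAV PA and 0.696% in the PDL control. The share of mitochondrial transcripts was thus lowest with PEDOT-S, whereas the nuclear share was highest there. Nearly all mitochondrial counts came from 7 of the 13 genes. The other 6 together held 21 counts in IKVAV PA + PEDOT-S, 25 in IKVAV PA and 14 in the PDL control. The shares here and the ratios below are thus of reads assigned and not of all mitochondrial messages.

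Within a library the ratio of both sets does not depend on how the libraries were scaled. IKVAV PA + PEDOT-S had 2.05 mitochondrial counts for each nuclear count, against 2.58 in IKVAV PA and 2.58 in the PDL control. Mitochondrial counts were 67.2% of all member counts in IKVAV PA + PEDOT-S (95% exact interval 67.2 to 67.3), 72.1% in IKVAV PA (72.0 to 72.1) and 72.0% in the PDL control (72.0 to 72.1). IKVAV PA and the PDL control were nearly alike in this ratio, and IKVAV PA + PEDOT-S stood below both.

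**Figure D1:**
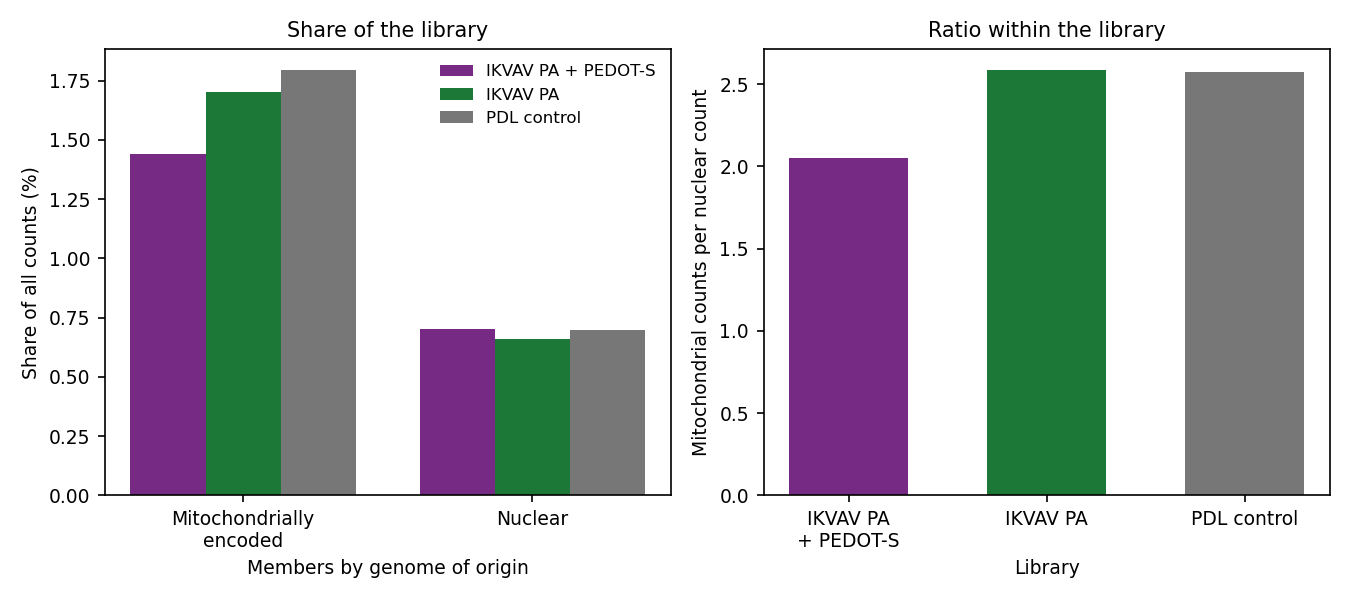
Members by genome of origin in each library. The left plot gives the share of all counts in percent (bars from 0) for mitochondrially encoded and nuclear members, and the right plot the mitochondrial counts per nuclear count, with 1 library per bar and no replicate error. The ratio is 2.05 in IKVAV PA + PEDOT-S, 2.58 in IKVAV PA and 2.58 in the PDL control. Nearly all mitochondrial counts come from 7 of the 13 genes.

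Summed over all 13 genes, mitochondrial transcripts were 0.819-fold in IKVAV PA + PEDOT-S relative to the PDL control (log2 -0.29). Against IKVAV PA they were 0.857-fold in IKVAV PA + PEDOT-S (log2 -0.22). IKVAV PA itself was at 0.956-fold of the PDL control (log2 -0.07). Among all 13884 genes, 14.1% had a log2 ratio below that of the mitochondrial sum in IKVAV PA + PEDOT-S against the PDL control, and among the 2575 genes with a mean of at least 100 CPM, 1.09% did. For IKVAV PA + PEDOT-S against IKVAV PA these shares were 15.7% and 2.83%, and in IKVAV PA against the PDL control 32.9% and 21.1%.

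Of the 7 complex I subunits in mitochondrial DNA, 5 had at least 35003 counts in each library. Mt-Nd5, a proton-pumping subunit at the end of the membrane arm, had 142637 counts (1822 CPM) in IKVAV PA + PEDOT-S, 283539 (2275 CPM) in IKVAV PA and 193284 (2427 CPM) in the PDL control. Its log2 ratio was -0.41 (95% counting interval -0.42 to -0.40) in IKVAV PA + PEDOT-S against the PDL control and -0.32 (-0.33 to -0.31) against IKVAV PA. Mt-Nd6, the single messenger RNA that is transcribed from the opposite strand, had 35003 counts (447 CPM) in IKVAV PA + PEDOT-S, 70137 (563 CPM) in IKVAV PA and 47868 (601 CPM) in the PDL control. Its log2 ratios were -0.43 (-0.45 to -0.41) against the PDL control and -0.33 (-0.35 to -0.31) against IKVAV PA. Mt-Nd5 and mt-Nd6 lie side by side at chrM:11742-13565 and chrM:13552-14070 (GRCm38) on opposite strands with overlapping ends. The counting's strand setting is not given in the sources used here, so reads from the overlap cannot be told apart. The same holds for reads of either strand across the rest of mt-Nd6, so its values are uncertain.

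The other complex I subunits differed less. Mt-Nd1, which lines the ubiquinone site, had 169502 counts in IKVAV PA + PEDOT-S, 304748 in IKVAV PA and 208683 in the PDL control. That is 2165 CPM in IKVAV PA + PEDOT-S, 2445 CPM in IKVAV PA and 2620 CPM in the PDL control. Its log2 ratio was -0.27 against the PDL control and -0.18 against IKVAV PA. Mt-Nd2, a proton-pumping subunit, had 121824 counts (1556 CPM) in IKVAV PA + PEDOT-S, 227387 (1825 CPM) in IKVAV PA and 149777 (1880 CPM) in the PDL control. The log2 ratios of mt-Nd2 were -0.27 and -0.23 for IKVAV PA + PEDOT-S against the PDL control and against IKVAV PA. Mt-Nd4, another proton-pumping subunit, had 88451 counts (1130 CPM) in IKVAV PA + PEDOT-S, 168978 (1356 CPM) in IKVAV PA and 109344 (1373 CPM) in the PDL control. For mt-Nd4 the log2 ratios were -0.28 against the PDL control and -0.26 against IKVAV PA.

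Mt-Cytb, the mitochondrial subunit of complex III that carries its ubiquinone sites, had 179132 counts (2289 CPM) in IKVAV PA + PEDOT-S, 329489 (2644 CPM) in IKVAV PA and 221473 (2780 CPM) in the PDL control. Its log2 ratio was -0.28 in IKVAV PA + PEDOT-S against the PDL control and -0.21 against IKVAV PA. Mt-Co1, the catalytic core of complex IV, was the member with the most counts, 403922 (5160 CPM) in IKVAV PA + PEDOT-S, 733861 (5888 CPM) in IKVAV PA and 485991 (6101 CPM) in the PDL control. Its log2 ratios were -0.24 and -0.19 for the same comparisons. All 7 genes were lowest in IKVAV PA + PEDOT-S and highest in the PDL control.

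At the 1.2-fold bound, 5 of these 7 genes were lower in IKVAV PA + PEDOT-S than in the PDL control (mt-Nd1, mt-Nd4, mt-Nd5, mt-Nd6 and mt-Cytb), where 7.74% of all genes were lower at that bound. Against IKVAV PA, mt-Nd5 and mt-Nd6 were lower in IKVAV PA + PEDOT-S at 1.2-fold, where 6.24% of all genes were. For IKVAV PA against the PDL control none of the 7 was, where 6.83% of all genes were, and the log2 ratios lay between -0.10 for mt-Nd1 and -0.02 for mt-Nd4. These 7 transcripts come from 1 genome and are cut from shared precursors, so they are not independent measurements of a difference.

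The make-up of the mitochondrial messages was similar in the 3 libraries, but mt-Nd5 and mt-Nd6 had a somewhat smaller share in IKVAV PA + PEDOT-S. Mt-Co1 was 35.4% of the counts of the 13 genes in IKVAV PA + PEDOT-S, 34.6% in IKVAV PA and 34.3% in the PDL control. Mt-Nd5 was 12.5% in IKVAV PA + PEDOT-S, 13.4% in IKVAV PA and 13.6% in the PDL control, and mt-Nd6 was 3.07% in IKVAV PA + PEDOT-S, 3.31% in IKVAV PA and 3.38% in the PDL control. The mitochondrial ribosomal RNAs, which are not members, also had ratios below 0 in IKVAV PA + PEDOT-S. The ribosomal RNA mt-Rnr1 had 23858 counts in IKVAV PA + PEDOT-S, 43779 in IKVAV PA and 28748 in the PDL control, a log2 ratio of -0.24 against the PDL control and -0.20 against IKVAV PA. For mt-Rnr2, the larger ribosomal RNA, these log2 ratios were -0.20 and -0.21. Of the 22 mitochondrial transfer RNA genes, mt-Tp alone held 4564 of 4593 counts in IKVAV PA + PEDOT-S, 9241 of 9316 in IKVAV PA and 5419 of 5443 in the PDL control.

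Per kilobase of exon, the 7 genes ran from 820 CPM (mt-Nd4) to 3340 CPM (mt-Co1) in IKVAV PA + PEDOT-S, with a median of 1499. In IKVAV PA they ran from 984 to 3811 with a median of 1758, and in the PDL control from 996 to 3949 with a median of 1812, with the same genes at both ends. No nuclear member exceeded 229 CPM per kb in any library. The other 6 mitochondrial genes stood apart from all of this, because almost no reads were assigned to them.

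**Figure D2:**
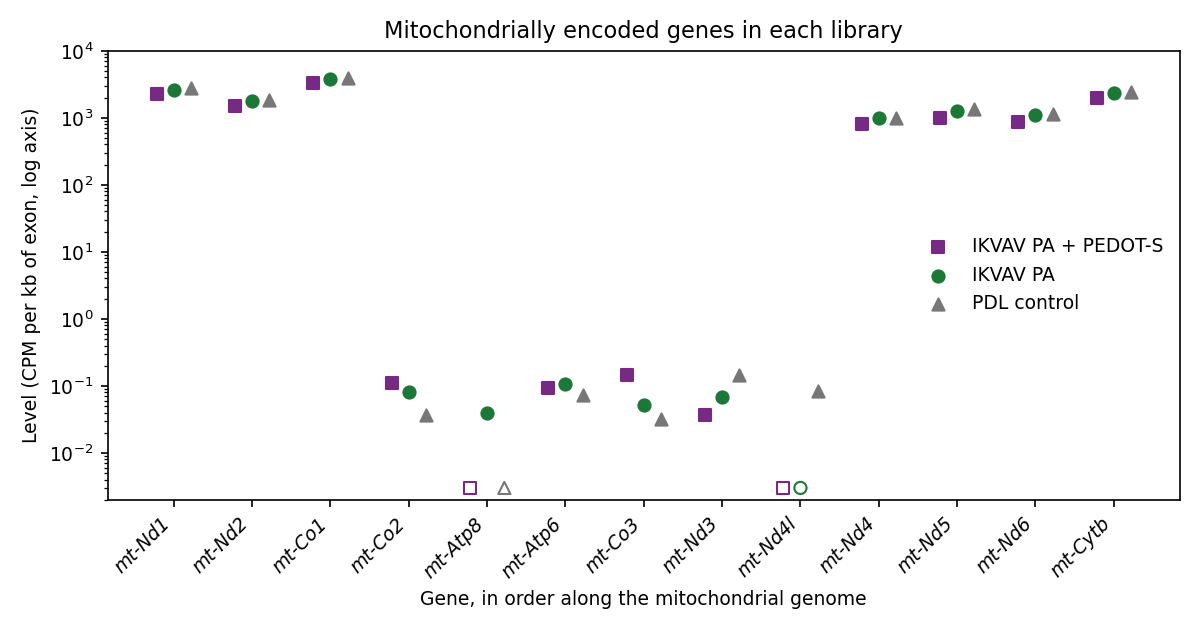
Level of the 13 mitochondrially encoded members in CPM per kb of exon (log axis) in 1 library each of IKVAV PA + PEDOT-S, IKVAV PA and PDL control. Open symbols at the foot of the plot mark 0 counts. The 7 genes with reads lie between 820 and 3949 CPM per kb and the other 6, which are neighbours in the middle of the gene order, at or near 0.

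Mt-Co2, the complex IV subunit that takes electrons from cytochrome c, had 6 counts in IKVAV PA + PEDOT-S, 7 in IKVAV PA and 2 in the PDL control. Mt-Co3, the third core subunit of complex IV, had 9 in IKVAV PA + PEDOT-S, 5 in IKVAV PA and 2 in the PDL control. Mt-Atp6, which forms the proton channel of the ATP synthase, had 5 in IKVAV PA + PEDOT-S, 9 in IKVAV PA and 4 in the PDL control. Mt-Atp8, its partner in the membrane part, had 0 counts in IKVAV PA + PEDOT-S, 1 in IKVAV PA and 0 in the PDL control. Mt-Nd3, a small complex I subunit, had 1 in IKVAV PA + PEDOT-S, 3 in IKVAV PA and 4 in the PDL control, and mt-Nd4l, another, had 0 in both scaffold libraries and 2 in the PDL control. So all 6 genes were near 0 in every library. A count of 0 allows a level of up to 0.0383 CPM in IKVAV PA + PEDOT-S, 0.0241 CPM in IKVAV PA and 0.0377 CPM in the PDL control, in terms of reads assigned. All 6 genes together had 21 counts in IKVAV PA + PEDOT-S, 25 in IKVAV PA and 14 in the PDL control, and no ratio is given for them.

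These 6 genes are neighbours on the mitochondrial genome, and a nuclear copy of most of this block is annotated on chromosome 1. The copy consists of 7 unprocessed pseudogenes at chr1:24611535-24616197 on the minus strand (GRCm38), which correspond to mt-Co2, mt-Atp6, mt-Co3, mt-Nd3 and mt-Nd4l and to parts of mt-Co1 and mt-Nd4. Gm28661 matches mt-Co2 in 681 of 681 aligned bases. Gm10925 matches mt-Atp6 in 678 of 678, Gm28437 matches mt-Co3 in 783 of 783, and Gm10222 matches mt-Nd4l in 294 of 294. Gm28438 matches mt-Nd3 in 344 of 345. No annotated transcript of another gene shared a run of 50 bases with mt-Atp8. No genome sequence was used here to look between the annotated genes.

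The first 90 bases of mt-Co2 and mt-Nd3 are shown with their nuclear copies, because the likeness decides how many places a read fits. Capitals mark the single difference, and the last line gives the start of mt-Cytb for contrast. Mt-Cytb shares no run of 50 bases with an annotated transcript of another gene. All stretches are on the coding strand of GRCm38.
mt-Co2, chrM:7013-7102, plus strand: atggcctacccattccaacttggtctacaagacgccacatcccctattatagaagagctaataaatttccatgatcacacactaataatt
Gm28661, chr1:24615476-24615565, minus strand: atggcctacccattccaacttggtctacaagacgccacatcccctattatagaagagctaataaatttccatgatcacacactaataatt
mt-Nd3, chrM:9459-9548, plus strand: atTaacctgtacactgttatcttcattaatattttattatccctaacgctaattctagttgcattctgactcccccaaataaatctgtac
Gm28438, chr1:24613030-24613119, minus strand: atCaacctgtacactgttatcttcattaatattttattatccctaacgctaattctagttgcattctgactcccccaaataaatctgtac
mt-Cytb, chrM:14145-14234, plus strand: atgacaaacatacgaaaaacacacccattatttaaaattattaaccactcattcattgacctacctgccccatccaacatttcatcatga
The stretch of mt-Co2 and its copy are identical in all 90 bases, and the stretch of mt-Nd3 differs from its copy by T3C (mt-Nd3 base first, counted from the first base of the gene).

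Each transcript was cut into all its overlapping 50-base words, and the share of words that also occur in annotated transcripts of other genes was counted. This share was 100% for mt-Co2, 99.9% for mt-Co3, 99.5% for mt-Atp6, 98.8% for mt-Nd4l and 98.0% for mt-Nd3. It was 62.2% for mt-Nd4, 51.1% for mt-Co1, 8.19% for mt-Nd2 and 7.61% for mt-Nd5. For mt-Nd1, mt-Nd6, mt-Cytb and mt-Atp8 it was 0. Of the 6 genes near 0 counts, 5 therefore had nearly all of their words elsewhere in the annotation, and mt-Atp8, the shortest gene of the 13, had none. How reads that fit several places were treated is not stated, and its part in the near-0 counts was not tested.

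The 7 copies on chromosome 1 held 1641 counts in IKVAV PA + PEDOT-S, 3093 in IKVAV PA and 1931 in the PDL control. Mt-Co1 and mt-Nd4 share more than 50% of their words with annotated nuclear copies, which for mt-Co1 include 1 each on chromosomes 1, 2 and 11, so reads from those words fit more than 1 annotated place. Without mt-Co1 and mt-Nd4 the mitochondrial sum had a log2 ratio of -0.32 in IKVAV PA + PEDOT-S against the PDL control and -0.24 against IKVAV PA, close to the values with them. Mt-Cytb, mt-Nd1 and mt-Nd6, with no shared words, had log2 ratios of -0.28, -0.27 and -0.43 against the PDL control.

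**Figure D3:**
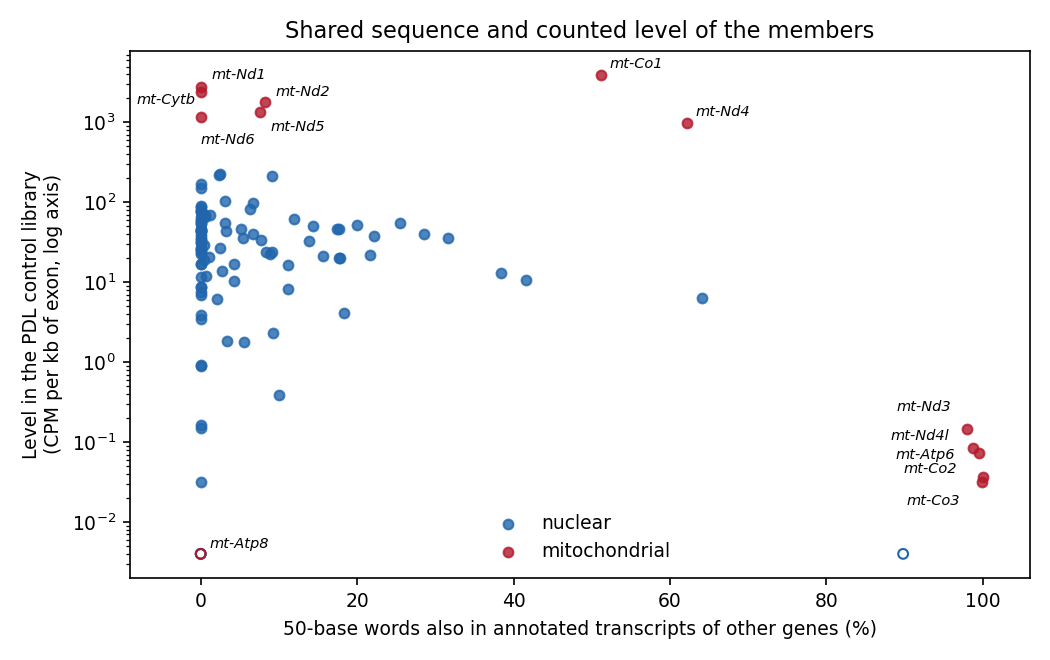
Level of each member in the PDL control library (CPM per kb of exon, log axis) against the share of its 50-base words that also occur in annotated transcripts of other genes (percent). Open symbols at the foot mark 0 counts. The 5 mitochondrial genes with shares from 98.0% to 100% lie near 0, and mt-Co1 and mt-Nd4, at 51.1% and 62.2%, lie among the highest levels.

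The nuclear members shared far fewer words, with a median of 0.701%. Summed over all 95, they had 7101 CPM in IKVAV PA + PEDOT-S, 6581 CPM in IKVAV PA and 6905 CPM in the PDL control. The ratio of the sums was 1.03-fold for IKVAV PA + PEDOT-S against the PDL control (log2 0.04) and 1.08-fold against IKVAV PA (log2 0.11). For IKVAV PA against the PDL control it was 0.953-fold (log2 -0.07). Scaled to the counts of nuclear protein-coding genes in place of the trimmed mean, the ratio of IKVAV PA + PEDOT-S to the PDL control was 0.01 on the log2 scale, so a difference of this size depends on the scaling.

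Member by member, the median log2 ratio of the 87 nuclear genes was 0.06 in IKVAV PA + PEDOT-S against the PDL control, with 65 of 87 above 0. Against IKVAV PA it was 0.12, with 79 of 87 above 0. For IKVAV PA against the PDL control it was -0.06, with 19 of 87 above 0. Over all 13884 genes the medians were 0.00, 0.01 and 0.00, with 49.4%, 51.7% and 50.04% of genes above 0. The nuclear members thus lay slightly to 1 side of the other genes in each comparison, within a narrow range of less than 1.4-fold either way.

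**Figure D4:**
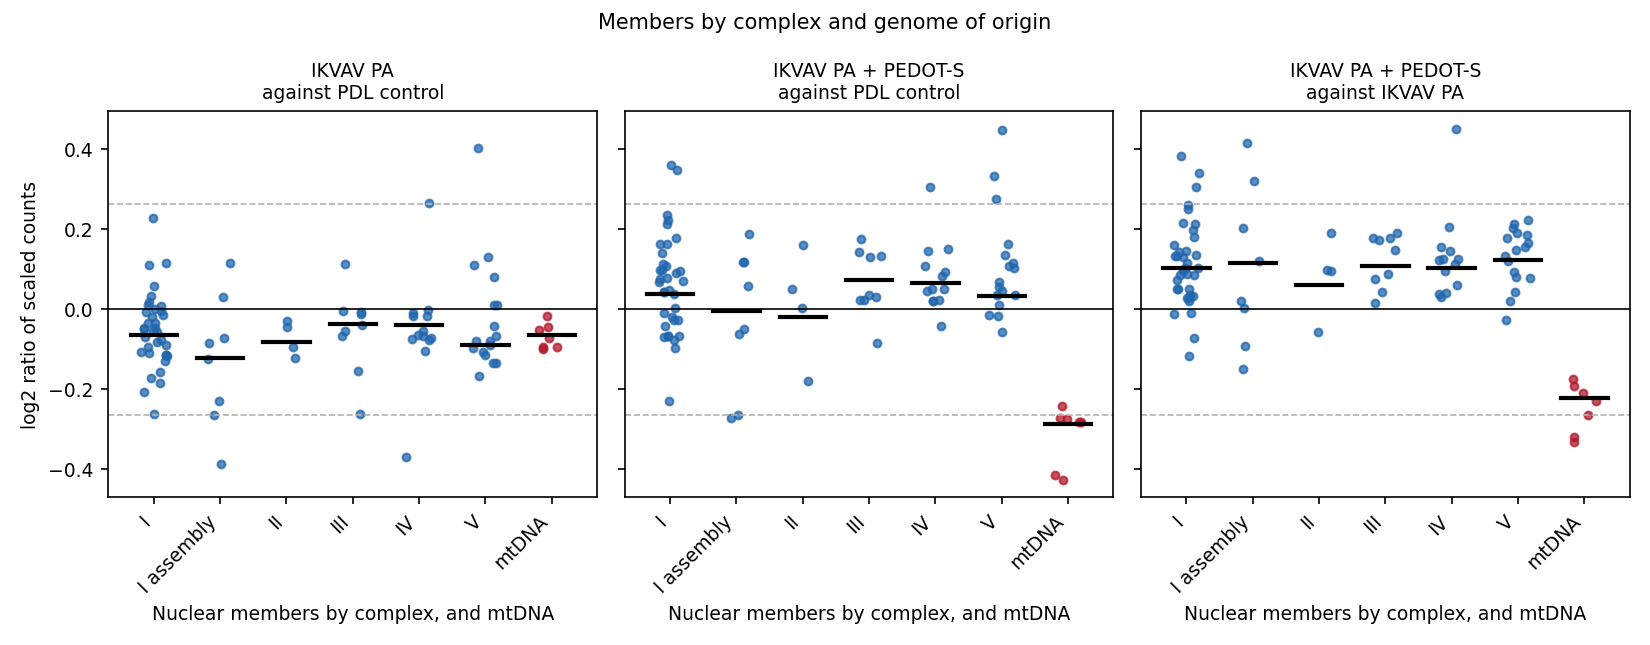
Log2 ratio of scaled counts of each member that passed the filter, for the 3 comparisons. Nuclear members (blue) are grouped by complex, mitochondrially encoded members (mtDNA, red) stand at the right, black bars give the ratio of the summed counts of all members of the group, and dashed lines mark 1.2-fold. The red points lie from -0.43 to -0.24 in the middle plot and from -0.10 to -0.02 in the left plot.

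The 36 nuclear subunits of complex I, the NADH dehydrogenase, held 1660 CPM in IKVAV PA + PEDOT-S, 1546 CPM in IKVAV PA and 1616 CPM in the PDL control. The log2 ratio of the sums was 0.04 for IKVAV PA + PEDOT-S against the PDL control, 0.10 against IKVAV PA and -0.06 for IKVAV PA against the PDL control. Among the abundant subunits, Ndufa10, an accessory subunit, had 7999 counts in IKVAV PA + PEDOT-S, 12558 in IKVAV PA and 8532 in the PDL control, and Ndufv2, a core iron-sulfur subunit, had 7305 in IKVAV PA + PEDOT-S, 11057 in IKVAV PA and 7484 in the PDL control. For IKVAV PA + PEDOT-S, the log2 ratios of Ndufa10 were -0.07 against the PDL control and 0.02 against IKVAV PA, and those of Ndufv2 were -0.01 and 0.07.

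The spread among the nuclear subunits of complex I was wider than these abundant ones show. In the accounts of single complexes from here on, highest and lowest are taken over the nuclear members that passed the filter. Ndufab1, the mitochondrial acyl carrier protein, had 1583 counts (20.2 CPM) in IKVAV PA + PEDOT-S, 2119 (17.0 CPM) in IKVAV PA and 1255 (15.8 CPM) in the PDL control. Its log2 ratio of 0.36 (0.25 to 0.47) against the PDL control was the highest of the nuclear complex I subunits. Ndufs1, the largest subunit and a carrier of iron-sulfur clusters, had 5565 counts (71.1 CPM) in IKVAV PA + PEDOT-S, 9305 (74.7 CPM) in IKVAV PA and 6632 (83.3 CPM) in the PDL control, with the lowest log2 ratio of the nuclear complex I subunits against the PDL control, -0.23. Ndufa1, a small accessory subunit encoded on the X chromosome, had 23.2 CPM in IKVAV PA + PEDOT-S, 18.8 CPM in IKVAV PA and 22.5 CPM in the PDL control. It was the nuclear complex I subunit with the lowest ratio in IKVAV PA against the PDL control, log2 -0.26, and its log2 ratio for IKVAV PA + PEDOT-S against IKVAV PA was 0.31. Ndufb2, another small accessory subunit, lay at 10.9 CPM in IKVAV PA + PEDOT-S, 11.8 CPM in IKVAV PA and 10.1 CPM in the PDL control and had the highest ratio of IKVAV PA to the PDL control, log2 0.23.

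Ndufb6, an accessory subunit of the membrane arm, was the 1 nuclear complex I subunit beyond the 1.2-fold bound. It had 2351 counts (30.0 CPM) in IKVAV PA + PEDOT-S, 2870 (23.03 CPM) in IKVAV PA and 1879 (23.6 CPM) in the PDL control, and a log2 ratio of 0.38 (0.30 to 0.46) for IKVAV PA + PEDOT-S against IKVAV PA. At that bound 2.33% of all genes were higher. Ndufb6 shares 39.0% of its exonic bases with Smim27, and without a known strand setting their reads cannot be told apart.

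The 8 assembly factors, which help to build complex I but are not part of it, held 147 CPM in IKVAV PA + PEDOT-S, 136 CPM in IKVAV PA and 148 CPM in the PDL control. Ndufaf4, Ndufaf5 and Ndufaf7 had the highest levels, with 37.3, 29.6 and 20.5 CPM in IKVAV PA + PEDOT-S. In IKVAV PA they had 32.4, 29.2 and 21.8 CPM, and in the PDL control 34.3, 30.7 and 21.4 CPM. Ndufaf3 was higher in IKVAV PA + PEDOT-S than in IKVAV PA at the 1.2-fold bound, where 2.33% of all genes were higher. It had 1856 counts (23.7 CPM) in IKVAV PA + PEDOT-S, 2216 (17.8 CPM) in IKVAV PA and 1659 (20.8 CPM) in the PDL control, a log2 ratio of 0.42 (0.33 to 0.50) between the scaffolds. Ndufaf2 was the 1 nuclear member that was lower at 1.2-fold, in IKVAV PA against the PDL control, where 6.83% of all genes were lower. It had 1788 counts (14.3 CPM) in IKVAV PA, 1494 (18.8 CPM) in the PDL control and a log2 ratio of -0.39 (-0.49 to -0.29). Ndufaf2 shares 65.6% of its exonic bases with another annotated gene, so this value is uncertain. Ndufaf1 had the lowest log2 ratio of the 8 in IKVAV PA + PEDOT-S against the PDL control, -0.27, with 9.39 CPM in IKVAV PA + PEDOT-S, 10.4 CPM in IKVAV PA and 11.3 CPM in the PDL control. Ndufaf6 had the highest ratio of IKVAV PA to the PDL control, log2 0.12, at 5.28 CPM in IKVAV PA and 4.87 CPM in the PDL control.

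Complex II, succinate dehydrogenase, is the 1 enzyme of the citric acid cycle that sits in the respiratory chain, and its 4 genes held 435 CPM in IKVAV PA + PEDOT-S, 417 CPM in IKVAV PA and 441 CPM in the PDL control. Sdha, the flavoprotein that oxidises succinate, had 12660 counts (162 CPM) in IKVAV PA + PEDOT-S, 20977 (168 CPM) in IKVAV PA and 14588 (183 CPM) in the PDL control. Sdhb, the iron-sulfur subunit, had 8900 (114 CPM) in IKVAV PA + PEDOT-S, 12408 (99.6 CPM) in IKVAV PA and 8099 (102 CPM) in the PDL control. Sdha and Sdhb lay on opposite sides of 0 in IKVAV PA + PEDOT-S against the PDL control, at log2 -0.18 and 0.16. Sdhc, a membrane anchor, had 87.9 CPM in IKVAV PA + PEDOT-S, 82.2 CPM in IKVAV PA and 84.8 CPM in the PDL control, a narrow range. The log2 ratio of the complex II sum was -0.02 for IKVAV PA + PEDOT-S against the PDL control, 0.06 against IKVAV PA and -0.08 for IKVAV PA against the PDL control.

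The 9 nuclear genes of complex III held 784 CPM in IKVAV PA + PEDOT-S, 727 CPM in IKVAV PA and 746 CPM in the PDL control, with log2 ratios of 0.07 against the PDL control, 0.11 against IKVAV PA and -0.04 between IKVAV PA and the PDL control. Cyc1, the cytochrome c1 that hands electrons to cytochrome c, had 10358 counts (132 CPM) in IKVAV PA + PEDOT-S, 14571 (117 CPM) in IKVAV PA and 9334 (117 CPM) in the PDL control. Its log2 ratio of 0.18 was the highest of the nuclear complex III genes against the PDL control. The large core proteins Uqcrc1 and Uqcrc2 had 152 and 120 CPM in IKVAV PA + PEDOT-S, 144 and 117 CPM in IKVAV PA, and 149 and 118 CPM in the PDL control. Uqcrb, a small subunit near the ubiquinone site, had 45.4 CPM in IKVAV PA + PEDOT-S, 40.2 CPM in IKVAV PA and 48.2 CPM in the PDL control. Uqcrb had the lowest log2 ratios of the nuclear complex III genes in both comparisons against the PDL control, -0.08 for IKVAV PA + PEDOT-S and -0.26 for IKVAV PA. Uqcrfs1, the Rieske iron-sulfur protein, had 89.7 CPM in IKVAV PA + PEDOT-S, 88.7 CPM in IKVAV PA and 82.0 CPM in the PDL control, and the highest ratio of IKVAV PA to the PDL control, log2 0.11. Uqcr11 had the highest ratio between the scaffolds, log2 0.19, at 54.8 CPM in IKVAV PA + PEDOT-S and 48.0 CPM in IKVAV PA.

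Complex IV, cytochrome c oxidase, has 20 nuclear genes on the list, of which 13 passed the filter. They held 1175 CPM in IKVAV PA + PEDOT-S, 1094 CPM in IKVAV PA and 1124 CPM in the PDL control, log2 ratios of 0.06 against the PDL control, 0.10 against IKVAV PA and -0.04 between IKVAV PA and the PDL control. Cox6a1, Cox4i1 and Cox6b1 had the highest levels, at 161, 155 and 123 CPM in IKVAV PA + PEDOT-S. In IKVAV PA they had 147, 145 and 114 CPM, and in the PDL control 149, 153 and 119 CPM. Cox5a, a subunit on the matrix side of the enzyme, had 4821 counts (61.6 CPM) in IKVAV PA + PEDOT-S, 7467 (59.9 CPM) in IKVAV PA and 3969 (49.8 CPM) in the PDL control. Its log2 ratios against the PDL control, 0.31 for IKVAV PA + PEDOT-S and 0.27 for IKVAV PA, were the highest of the nuclear complex IV genes that passed the filter. Ndufa4, the subunit once assigned to complex I, had 117 CPM in IKVAV PA + PEDOT-S, 115 CPM in IKVAV PA and 121 CPM in the PDL control and the lowest ratio of these nuclear genes in both comparisons of IKVAV PA + PEDOT-S, log2 -0.04 and 0.03.

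Several complex IV subunits exist as forms for particular tissues, and the neurons used the widespread forms in all 3 libraries. Cox6a2, the heart and skeletal muscle form, had 103 counts in IKVAV PA + PEDOT-S, 120 in IKVAV PA and 99 in the PDL control, which per kilobase of exon is 0.838% in IKVAV PA + PEDOT-S, 0.670% in IKVAV PA and 0.853% in the PDL control of the Cox6a pair. Of the nuclear complex IV genes that passed the filter, Cox6a2 had the highest log2 ratio between the scaffolds, 0.45 (0.06 to 0.84). In IKVAV PA against the PDL control Cox6a2 had the lowest of them, -0.37 (-0.76 to 0.03), and both intervals are wide. Cox7a1, another muscle form, had 38 counts in IKVAV PA + PEDOT-S, 36 in IKVAV PA and 39 in the PDL control. Cox8b, also of muscle, had 3 in IKVAV PA + PEDOT-S, 1 in IKVAV PA and 0 in the PDL control, and Cox8c had 0 in all 3 libraries. The muscle forms thus had few counts in every library. Cox4i2, known for its use at low oxygen and in lung, had 3 counts in IKVAV PA + PEDOT-S, 10 in IKVAV PA and 2 in the PDL control. Ndufa4l2, which is induced at low oxygen, had 15 in IKVAV PA + PEDOT-S, 9 in IKVAV PA and 13 in the PDL control. Of 8 muscle markers, 3 passed the filter and Myod1 was at 0, with sums of 5.29 CPM in IKVAV PA + PEDOT-S, 5.09 CPM in IKVAV PA and 5.59 CPM in the PDL control.

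Cox6b2, the testis form of the subunit that bridges complex IV dimers, was the 1 member under the filter whose counting interval lay beyond 1.5-fold. It had 12 counts (0.153 CPM) in IKVAV PA + PEDOT-S, 28 (0.225 CPM) in IKVAV PA and 78 (0.979 CPM) in the PDL control. The ratio was 6.39-fold lower in IKVAV PA + PEDOT-S than in the PDL control (log2 -2.68, interval -3.69 to -1.79) and 4.36-fold lower in IKVAV PA (log2 -2.12, interval -2.80 to -1.48). Even in the PDL control Cox6b2 was 0.521% of the Cox6b pair per kilobase, against 0.0794% in IKVAV PA + PEDOT-S and 0.126% in IKVAV PA.

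Complex V, the ATP synthase, held 2899 CPM in IKVAV PA + PEDOT-S, 2661 CPM in IKVAV PA and 2831 CPM in the PDL control over its 18 identifiers, 17 of which passed. The log2 ratio of the sums was 0.03 for IKVAV PA + PEDOT-S against the PDL control, 0.12 against IKVAV PA and -0.09 for IKVAV PA against the PDL control. Atp5b and Atp5a1, the beta and alpha subunits of the catalytic head, were the most abundant nuclear members. Atp5b had 75604 counts (966 CPM) in IKVAV PA + PEDOT-S, 108572 (871 CPM) in IKVAV PA and 75057 (942 CPM) in the PDL control. Atp5a1 had 53537 (684 CPM) in IKVAV PA + PEDOT-S, 84019 (674 CPM) in IKVAV PA and 56689 (712 CPM) in the PDL control. Atp5f1, of the stalk that holds the catalytic head, had 211 CPM in IKVAV PA + PEDOT-S, 192 CPM in IKVAV PA and 205 CPM in the PDL control. Without Atp5b, the sum of the nuclear members had a log2 ratio of 0.10 for IKVAV PA + PEDOT-S against IKVAV PA and -0.06 for IKVAV PA against the PDL control, close to the values with it.

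Atp5e, the small epsilon subunit of the central stalk, was the 1 nuclear member that was higher at 1.2-fold in IKVAV PA + PEDOT-S against the PDL control, where 2.61% of all genes were higher at that bound. It had 3898 counts (49.8 CPM) in IKVAV PA + PEDOT-S, 5392 (43.3 CPM) in IKVAV PA and 3148 (39.5 CPM) in the PDL control, a log2 ratio of 0.33 (0.27 to 0.40) against the PDL control. In IKVAV PA against the PDL control its log2 ratio was 0.13, and no nuclear member was higher at 1.2-fold there, where 2.95% of all genes were. Atp5l, a membrane subunit at the dimer interface, had the highest log2 ratios of the nuclear complex V genes that passed the filter against the PDL control, 0.45 (0.18 to 0.72) for IKVAV PA + PEDOT-S and 0.40 for IKVAV PA. It had 268 counts in IKVAV PA + PEDOT-S, 414 in IKVAV PA and 200 in the PDL control. Its interval was too wide to clear 1.2-fold. Atp5l shares 50-base words with 641 other annotated genes, 19 of them pseudogenes, so its counts and ratios are uncertain. Atp5d, the delta subunit of the central stalk, had the highest ratio between the scaffolds, log2 0.22, at 144 CPM in IKVAV PA + PEDOT-S and 123 CPM in IKVAV PA. Atp5j2 had the lowest ratio of IKVAV PA to the PDL control, log2 -0.17, at 61.1 CPM in IKVAV PA and 68.6 CPM in the PDL control.

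The c-ring, which turns as protons pass, is made of 1 protein encoded by 3 genes. Per kilobase of exon, Atp5g3 gave 73.7% of this set in IKVAV PA + PEDOT-S, 72.6% in IKVAV PA and 72.6% in the PDL control. Atp5g1 gave 15.2% in IKVAV PA + PEDOT-S, 14.9% in IKVAV PA and 15.3% in the PDL control, and Atp5g2 gave 11.1% in IKVAV PA + PEDOT-S, 12.5% in IKVAV PA and 12.1% in the PDL control. The balance of the 3 genes was therefore nearly the same in all 3 libraries.

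Per kilobase of exon the complexes differed more from each other than the libraries did. Over the genes that passed the filter, the median level of complex IV was 72.9 CPM per kb in IKVAV PA + PEDOT-S, 66.8 in IKVAV PA and 70.4 in the PDL control. Complex III followed with 55.6 in IKVAV PA + PEDOT-S, 52.2 in IKVAV PA and 54.7 in the PDL control. Complex II had 44.99 in IKVAV PA + PEDOT-S, 42.6 in IKVAV PA and 44.9 in the PDL control, and complex V had 33.1 in IKVAV PA + PEDOT-S, 31.0 in IKVAV PA and 30.8 in the PDL control. Complex I came next with 28.2 in IKVAV PA + PEDOT-S, 25.6 in IKVAV PA and 26.5 in the PDL control, and the assembly factors last with 6.77 in IKVAV PA + PEDOT-S, 6.58 in IKVAV PA and 7.27 in the PDL control. The order of the groups was the same in all 3 libraries. These levels depend on the annotated exon length, which takes in rarely used exons. Atp5l, with 6443 annotated exonic bases, had the lowest level of the nuclear complex V genes that passed the filter, 0.531 CPM per kb in IKVAV PA + PEDOT-S, and its level before division by length, 3.42 CPM, was the lowest of them too.

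The nuclear members are short, and the ratios of short genes as a class lay away from 0 too. Members that passed the filter had a median of 1756 exonic bases, against 4785.5 for all 12490 protein-coding genes that passed. In IKVAV PA + PEDOT-S against IKVAV PA, the 19 members of up to 1000 bases had a median log2 ratio of 0.15, and all 166 protein-coding genes of that length had 0.14. For members of 1000 to 2000 bases the median was 0.11, against 0.09 for 1085 protein-coding genes, and above 4000 bases it was 0.08 over 11 members, against -0.01 for 7640 genes. In the comparisons against the PDL control the medians of the members showed no such order by length. For IKVAV PA + PEDOT-S they were 0.05 up to 1000 bases, 0.08 up to 2000, 0.05 up to 4000 and 0.04 above, where all protein-coding genes had 0.08, 0.05, 0.01 and -0.01. For IKVAV PA the members had -0.08, -0.06, -0.05 and -0.08 in these 4 classes, and all protein-coding genes -0.06, -0.04, -0.02 and 0.01. Between the scaffolds exonic length thus moved with the small shifts of the nuclear members, and its part in them was not tested.

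**Figure D5:**
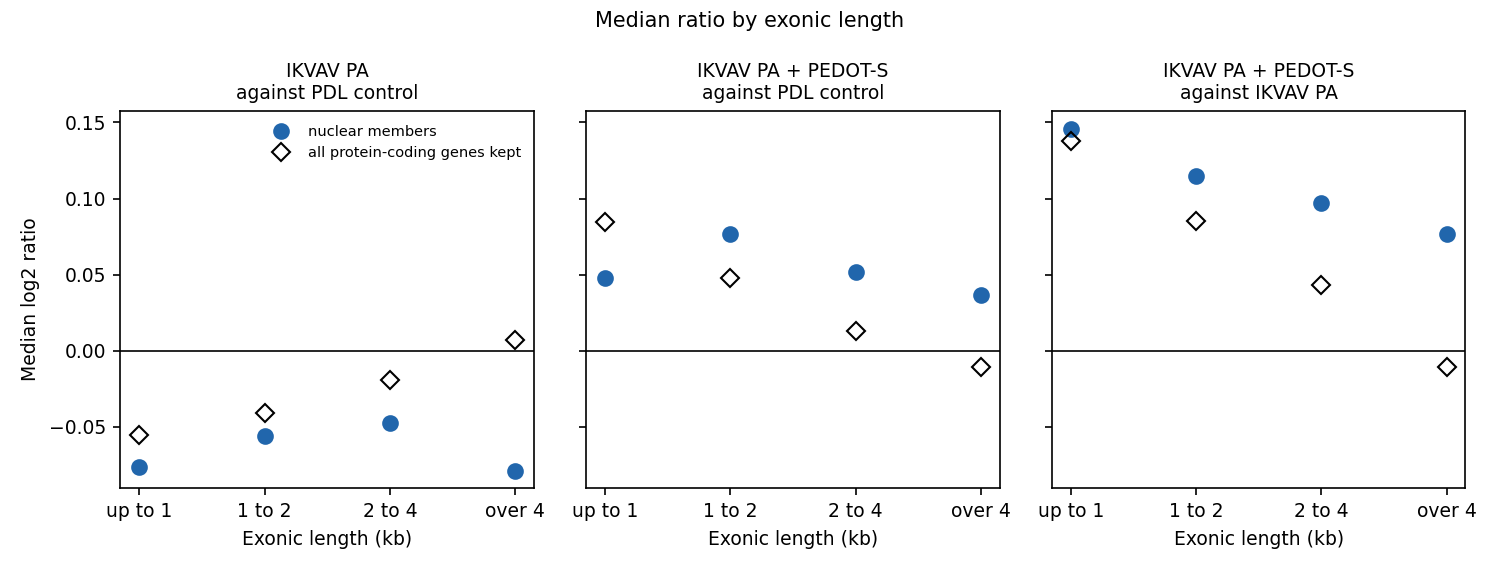
Median log2 ratio of nuclear members (filled circles) and of all protein-coding genes that passed the filter (open diamonds, members included) in 4 classes of exonic length, for the 3 comparisons. In IKVAV PA + PEDOT-S against IKVAV PA the median falls with length in both sets, with 0.15 for members and 0.14 for all genes in the shortest class and 0.08 for members and -0.01 for all genes in the longest.

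The promoters of the nuclear members were searched for motifs of factors known to drive respiratory genes. NRF-1 and the ETS-family factor GABP are the textbook regulators of this set, and YY1 has been tied to it as well. RefSeq windows of 300 bases (250 before to 50 after the start, GRCm38.p6) were found for 76 of the 95 nuclear members, 81 windows in all. The full NRF-1 palindrome, which is the first run of capitals in the Cox6a1 window printed below, was in 8.64% of the 81 windows, against 1.99% of 12926 windows of genes that passed the filter and 0.971% of all 32851 windows. With any bases for the middle AT (a relaxed form that includes the full palindrome and is the second run of capitals there) these shares were 27.2%, 13.1% and 6.23%. The ETS core CCGGAAG, on either strand, was in 22.2%, 16.8% and 8.86%, and AAGATGGC, the YY1 motif on either strand, in 13.6%, 4.26% and 2.75%. Of the 76 genes, 33 had none of the 3 kinds of motif and 7 had 2 kinds. A match describes the letters of the window and is not a binding site.

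Of the members whose windows hold the full NRF-1 palindrome, Cox6a1 and Uqcrc1 had the highest mean CPM, and their windows are shown. Both also hold a second, relaxed match. Atp5j is shown because it had the highest mean CPM of the members with both the YY1 and ETS motifs, which lie close together in its window. Capitals mark the motifs, and each window is printed on the strand of its gene.
Cox6a1, chr5:115348909-115349208, minus strand: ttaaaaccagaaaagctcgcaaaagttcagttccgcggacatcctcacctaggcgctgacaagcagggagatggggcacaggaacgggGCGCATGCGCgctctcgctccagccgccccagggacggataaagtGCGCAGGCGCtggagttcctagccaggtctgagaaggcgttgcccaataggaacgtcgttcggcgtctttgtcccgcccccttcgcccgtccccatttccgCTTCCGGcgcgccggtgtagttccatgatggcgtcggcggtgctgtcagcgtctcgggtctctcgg
Uqcrc1, chr9:108936398-108936697, plus strand: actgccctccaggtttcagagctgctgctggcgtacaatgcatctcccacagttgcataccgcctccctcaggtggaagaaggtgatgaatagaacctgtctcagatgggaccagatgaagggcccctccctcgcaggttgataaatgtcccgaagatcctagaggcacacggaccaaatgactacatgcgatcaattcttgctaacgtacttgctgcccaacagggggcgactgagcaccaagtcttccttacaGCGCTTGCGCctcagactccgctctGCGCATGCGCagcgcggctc
Atp5j, chr16:84834927-84835226, minus strand: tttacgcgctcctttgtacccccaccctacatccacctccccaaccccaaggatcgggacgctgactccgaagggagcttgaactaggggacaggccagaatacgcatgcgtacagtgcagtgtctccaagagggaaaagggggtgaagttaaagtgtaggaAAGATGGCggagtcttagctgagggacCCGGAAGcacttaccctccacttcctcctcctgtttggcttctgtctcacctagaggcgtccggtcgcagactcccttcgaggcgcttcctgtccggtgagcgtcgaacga
Cox6a1 also holds the ETS core, read from the other strand as CTTCCGG, and the Atp5j window is 1 of 2 given for that gene.

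Members with and without a motif had medians on the same side of 0 in each comparison. For the relaxed NRF-1 motif, 21 genes with it had a median log2 ratio of 0.05 in IKVAV PA + PEDOT-S against the PDL control, and 51 genes without it had 0.07. Against IKVAV PA these medians were 0.09 and 0.13, and in IKVAV PA against the PDL control -0.05 and -0.07. For the ETS core, 18 genes with it and 54 without it had 0.04 and 0.07 in IKVAV PA + PEDOT-S against the PDL control. Between the scaffolds they had 0.12 and 0.12, and in IKVAV PA against the PDL control -0.07 and -0.06. For the YY1 motif, 11 genes with it had 0.16 between the scaffolds and 61 without it had 0.11. Against the PDL control these YY1 medians were 0.07 and 0.05 in IKVAV PA + PEDOT-S, and -0.07 and -0.07 in IKVAV PA. Cox6a1 had log2 ratios of 0.11 and 0.13 against the PDL control and against IKVAV PA, Uqcrc1 had 0.02 and 0.08, and Atp5j had 0.07 and 0.16.

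Many members also start next to another gene. The search took pairs of protein-coding genes on opposite strands that run apart without overlap, with starts within 1000 bases of each other. Of the 95 nuclear members, 23 (24.2%) were in such a pair, against 1486 of 21970 protein-coding genes (6.76%). Pairs with overlapping starts were not counted. The start of Ndufa7, an accessory subunit of complex I, is 10 bases from that of the ribosomal protein gene Rps28. Sdha starts 29 bases from Ccdc127, and Sdhd, the other membrane anchor of complex II, 98 bases from Timm8b, which codes for a protein of mitochondrial import. In IKVAV PA + PEDOT-S against the PDL control the log2 ratios were 0.04 for Ndufa7 and 0.21 for Rps28, -0.18 for Sdha and 0.01 for Ccdc127, and 0.00 for Sdhd and 0.12 for Timm8b. Shared starts did not mean equal ratios in these pairs.

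Other genes of the pathway were read from lists. Over all genes at 1.5-fold, 0.447% were higher and 3.76% lower in IKVAV PA + PEDOT-S against the PDL control. For IKVAV PA against the PDL control these shares were 0.54% and 3.42%, and between the scaffolds 0.331% and 2.02%. They stand beside the counts of every list below. Of 39 other assembly factors of the respiratory chain, 37 passed the filter, and 1 of them, Cox11, was higher at 1.5-fold in IKVAV PA + PEDOT-S against the PDL control. Cox11, which helps to load copper into mt-Co1, had 515 counts (6.58 CPM) in IKVAV PA + PEDOT-S, 693 (5.56 CPM) in IKVAV PA and 299 (3.75 CPM) in the PDL control, a log2 ratio of 0.81, with 48.3% of its exonic bases shared with another gene. The list's median log2 ratio was -0.02, and no factor was lower there and none was higher or lower at 1.5-fold in the other comparisons. Nubpl, an iron-sulfur carrier for complex I, had the lowest log2 ratio against the PDL control, -0.46 for IKVAV PA + PEDOT-S and -0.29 for IKVAV PA. Cox16 had the lowest between the scaffolds, -0.79, on 56 counts in IKVAV PA + PEDOT-S and 154 in IKVAV PA. All 15 genes of cytochrome c and ubiquinone synthesis passed and none changed at 1.5-fold, with medians of 0.02, -0.05 and 0.04 in IKVAV PA + PEDOT-S against the PDL control, IKVAV PA + PEDOT-S against IKVAV PA and IKVAV PA against the PDL control. Coq7, which hydroxylates the ubiquinone ring, was lowest against the PDL control, at log2 -0.40 for IKVAV PA + PEDOT-S and -0.36 for IKVAV PA.

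Genes that maintain and transcribe mitochondrial DNA stayed near the middle of all genes. Of 23 listed, 22 passed the filter, none was higher or lower at 1.5-fold in any comparison, and the medians were -0.01 for IKVAV PA + PEDOT-S against the PDL control, 0.01 against IKVAV PA and 0.00 for IKVAV PA against the PDL control. They ran from -0.28 (Pnpt1, an RNA-degrading enzyme) to 0.36 (Polg2, a subunit of the mitochondrial DNA polymerase) in IKVAV PA + PEDOT-S against the PDL control, and from -0.69 (Mterf1a) to 0.30 (Mterf2) against IKVAV PA. In IKVAV PA against the PDL control they ran from -0.13 (Ssbp1) to 0.54 (Mterf1a). Named here for their role and after their values were seen, Tfam, which packages mitochondrial DNA, had 38.3 CPM in IKVAV PA + PEDOT-S, 35.8 CPM in IKVAV PA and 38.8 CPM in the PDL control, and the RNA polymerase Polrmt had 31.7 CPM in IKVAV PA + PEDOT-S, 31.5 CPM in IKVAV PA and 31.0 CPM in the PDL control. Lrpprc, which stabilises mitochondrial messages, had 117 CPM in each of the 3 libraries.

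Among 13 nuclear regulators of mitochondrial genes, 12 passed the filter and 1 was lower at 1.5-fold in each scaffold library against the PDL control. Over all genes 3.76% were lower in IKVAV PA + PEDOT-S and 3.42% in IKVAV PA. Epas1, the oxygen-sensing factor HIF-2 alpha, had 94 counts (1.201 CPM) in IKVAV PA + PEDOT-S, 280 (2.25 CPM) in IKVAV PA and 457 (5.74 CPM) in the PDL control. Its log2 ratio was -2.26 for IKVAV PA + PEDOT-S and -1.35 for IKVAV PA against the PDL control, and -0.90 between the scaffolds, where it was not lower at 1.5-fold. The medians of the list were -0.05, 0.00 and -0.04 in IKVAV PA + PEDOT-S against the PDL control, IKVAV PA + PEDOT-S against IKVAV PA and IKVAV PA against the PDL control. Yy1 had the highest ratio of the list in IKVAV PA + PEDOT-S against the PDL control, log2 0.37, with 120 CPM in IKVAV PA + PEDOT-S, 108 CPM in IKVAV PA and 93.2 CPM in the PDL control. Perm1 had the highest in IKVAV PA against the PDL control, log2 0.50, and Hif1a between the scaffolds, log2 0.15.

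The neighbouring pathways of the mitochondrion had few genes beyond 1.5-fold. Some of their medians lay about as far from 0 as those of the nuclear members. The latter were 0.12 in IKVAV PA + PEDOT-S against IKVAV PA and -0.06 in IKVAV PA against the PDL control. The 23 measured genes of the citric acid cycle and pyruvate dehydrogenase had medians of -0.04 in IKVAV PA + PEDOT-S against the PDL control, 0.04 against IKVAV PA and -0.12 for IKVAV PA against the PDL control, and none changed at 1.5-fold. Suclg2, a subunit of succinate-CoA ligase, was the lowest against the PDL control, at log2 -0.60 for IKVAV PA + PEDOT-S and -0.52 for IKVAV PA. The 27 measured genes of mitochondrial mass, import and carriers had medians of 0.03, 0.11 and -0.09 in the same 3 comparisons, and none changed at 1.5-fold. They include Vdac1, the outer membrane channel, named outside the rule for its wide use as a measure of mitochondrial mass, with 357 CPM in IKVAV PA + PEDOT-S, 332 CPM in IKVAV PA and 349 CPM in the PDL control. Of 11 measured antioxidant and uncoupling genes, Ucp2, an inner membrane carrier, was lower in IKVAV PA than in the PDL control at 1.5-fold. Over all genes 3.42% were lower there. Ucp2 had 54 counts in IKVAV PA, 85 in the PDL control and a log2 ratio of -1.30. In IKVAV PA + PEDOT-S it had 46 counts, a log2 ratio of -0.86 against the PDL control, and was not lower at that bound. The medians of this list were 0.00, 0.02 and -0.05.

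Markers of other cell types moved between the same libraries. Over all genes at 1.5-fold, 0.447% were higher and 3.76% lower in IKVAV PA + PEDOT-S against the PDL control. In IKVAV PA against the PDL control these shares were 0.54% and 3.42%. Of 11 measured astrocyte markers, 5 were lower and Gfap higher in IKVAV PA + PEDOT-S against the PDL control, and 8 were lower in IKVAV PA, with sums of 364 CPM in IKVAV PA + PEDOT-S, 356 CPM in IKVAV PA and 517 CPM in the PDL control. Of 9 measured progenitor and division genes, 6 were lower in IKVAV PA + PEDOT-S and 6 in IKVAV PA, with sums of 224 CPM in IKVAV PA + PEDOT-S, 205 CPM in IKVAV PA and 418 CPM in the PDL control. Of 8 measured fibroblast and mural cell genes, 8 were lower in IKVAV PA + PEDOT-S and 5 in IKVAV PA, with sums of 28.2 CPM in IKVAV PA + PEDOT-S, 62.2 CPM in IKVAV PA and 156 CPM in the PDL control. For the 12 oligodendrocyte lineage genes, 5 were higher and 4 lower in IKVAV PA + PEDOT-S, and 2 higher and 4 lower in IKVAV PA, with sums of 117 CPM in IKVAV PA + PEDOT-S, 89.7 CPM in IKVAV PA and 119 CPM in the PDL control. Of 6 endothelial genes 3 were measured, with 2 lower in IKVAV PA + PEDOT-S and 1 in IKVAV PA and sums of 3.35 CPM in IKVAV PA + PEDOT-S, 4.03 CPM in IKVAV PA and 6.40 CPM in the PDL control. Of 8 microglial genes 1 was measured, with sums of 2.71 CPM in IKVAV PA + PEDOT-S, 2.704 CPM in IKVAV PA and 2.25 CPM in the PDL control. The sums for astrocytes, progenitors and fibroblasts were lower in both scaffold libraries than in the PDL control, and the scaffold libraries also differed from each other, most for the fibroblast and mural cell genes. In IKVAV PA + PEDOT-S against IKVAV PA, 2 astrocyte markers were higher, and 4 oligodendrocyte lineage genes were higher and 2 lower. Also lower there were 4 fibroblast and mural cell genes and 1 endothelial gene, and no progenitor or microglial gene was higher or lower. Over all genes 0.331% were higher and 2.02% lower in that comparison. The part of these cells in the results was not tested, and in bulk RNA fewer cells of a type and less RNA per cell cannot be told apart.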

How the data were processed

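The authors deposited whole-number counts per gene for 3 libraries, which are not normalised. The submitters' processing notes name HTSeq 2.0.2, STAR 2.7.5, cutadapt 4.2 and DESeq2 1.14.1 and the build mm10. Gene annotation, strandedness and the handling of reads with several places are not stated. Per the labels' protocols RNA came from a micro column kit and went into a total RNA library kit, whereas polyA RNA is given as the molecule. That conflict bears on mitochondrial RNAs, whose poly(A) tails are short or absent, and was not resolved.

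Symbols, classes and exons came from GENCODE M21 (GRCm38), which held 54165 of the 54232 identifiers. Counts were scaled by TMM factors (edgeR 4.0.16, R 4.3.3). Each ratio of scaled counts has a 95% interval, by the exact Clopper-Pearson method for 1 count given the sum of both (scipy 1.17.1). Without molecular identifiers, reads are not independent molecules, so intervals and the floor of 3 counts cover counting error only. Medians use log2 ratios with a prior count of 2. The scripts were tested on simulated data.

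The members and lists were chosen with earlier results of these data known. Named genes are all mitochondrially encoded members, the 3 most abundant nuclear genes of each complex with the highest and lowest ratio per comparison, every gene beyond 1.5-fold, the tissue isoforms, and the extremes of each list; 1 gene that this rule takes is not reported here. Genes beyond 1.2-fold, promoters and gene pairs shown were chosen after their values were seen. Alternatives were other scalings (DESeq2 1.42.0 size factors among them), filters, fold bounds, thinning and left-out members.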

Additional observations from a re-analysis of the deposited data

How the results depend on the processing

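With 1 library per group no library could be left out, and the limits are those of counting: differences between cultures are not measured. No paired analysis was possible because the groups share a single replicate number, 3, and no test was made. No nuclear member was called at 1.5-fold under any scaling, at 5 CPM or after thinning to the smallest total. At the 1.2-fold bound 1 nuclear member was lower in IKVAV PA against the PDL control, 1 was higher in IKVAV PA + PEDOT-S against the PDL control and 2 were higher in IKVAV PA + PEDOT-S against IKVAV PA. The shares of all genes at that bound were 6.83%, 2.61% and 2.33%, in the same order. With no filter beyond 1 count, 1 (Cox6b2) was lower in IKVAV PA + PEDOT-S and 1 in IKVAV PA against the PDL control. The log2 ratio of the nuclear sum in IKVAV PA + PEDOT-S against the PDL control was 0.014 by total counts, 0.00738 by nuclear protein-coding totals and 0.034 without members that share exons. Against IKVAV PA it was 0.093 and 0.085 by these totals and 0.10 without Atp5b. In IKVAV PA against the PDL control the values were -0.079 and -0.078, and -0.062 without Atp5b. The mitochondrial sum in IKVAV PA + PEDOT-S against the PDL control was -0.31 by total counts, -0.32 by nuclear totals, -0.31 without mt-Co1, -0.32 without mt-Co1 and mt-Nd4, and -0.33 relative to the nuclear members. Against IKVAV PA these values were -0.24, -0.25, -0.24, -0.24 and -0.33. In IKVAV PA against the PDL control they were -0.075, -0.074, -0.073, -0.080 and 0.00398, and -0.062 with DESeq2 size factors, so relative to the nuclear members the sign turned, by the choice of denominator. The denominator and the omission of mt-Co1 and mt-Nd4 were chosen after seeing the data. Atp5a1 in IKVAV PA + PEDOT-S against IKVAV PA turned to -0.0037 by nuclear totals. Under every alternative run for them, the medians of the nuclear members stayed between the median lower and median upper counting bounds of those members. The other scalings were not run for the medians.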
